A study of Mus musculus with 6 samples.

Results

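S100 proteins are small calcium-binding proteins that are found only in vertebrates. The genes examined here were S100a1, S100a4, S100a6, S100a8, S100a9, S100a10, S100a11 and S100a13, 8 genes among the 16535 named genes of the array. They were taken by symbol, each was read by 1 probe, and all 8 passed the filter on dim signals that left 11507 features (1 probe per gene, plus unnamed probes) for testing. Whole blood came from male C57BL/6J mice aged 9 weeks that were kept on a normal diet (control) or on 50% food restriction (FR) for 2 weeks, with 8 mice per diet. The blood was drawn from the heart under anaesthesia and frozen. RNA was studied only as pools: pool 1 held animals 1 to 8 of each diet, pool 2 animals 1 to 4 and pool 3 animals 5 to 8, so pools 2 and 3 share no animal and pool 1 repeats the animals of both. Each pool was read on 2 two-colour Agilent arrays, with FR and control RNA together and the dyes (Cy5 and Cy3) exchanged between them. A ratio below 0 on the log2 scale means less signal in FR. Means, SDs and tests rest on the ratios of pools 2 and 3 (n = 2). The p-values use a variance shared by features of like brightness, not each gene's own spread between the 2 pools.

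Members of the family pair up through EF-hand loops, which bind calcium and open a surface that grips other proteins. S100A8 and S100A9 together form calprotectin, an abundant cytosolic complex of neutrophils and monocytes that sequesters metal ions and, once released, acts on Toll-like receptor 4 and the receptor for advanced glycation end products. S100A10 and S100A11 bind annexins at membranes, S100A4 binds nonmuscle myosin, S100A6 binds calcyclin-binding protein, S100A1 is best known from muscle, and S100A13 takes part in the non-classical release of fibroblast growth factor 1.

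All 8 transcripts were lower in FR blood (limma, adjusted p under 0.05), where 24.5% of all features tested were called lower and 3.75% higher. With a variance estimated partly gene by gene (5.39 prior degrees of freedom in limma) 5 of the 8 were called lower, where 15.5% of features were, and with the diets treated as separate samples (no replicate block) 4 of the 8 were, where 8.59% of features were. The mean log2 ratios ran from -2.15 for S100a10 to -0.65 for S100a8, with a median of -0.91, while the median over all features was 0.01. The ratio was below 0 in all 3 pools for 8 of 8 members and for 39.2% of features. On single arrays, 6 of the 8 members were below 0 on all 6, and S100a6 and S100a9 on 5. Signals of all 8 were well above background in both diets on all 4 arrays of pools 2 and 3. Since blood was taken whole, fewer cells of a type and less RNA per cell cannot be told apart in any of these values.

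**Figure D1:**
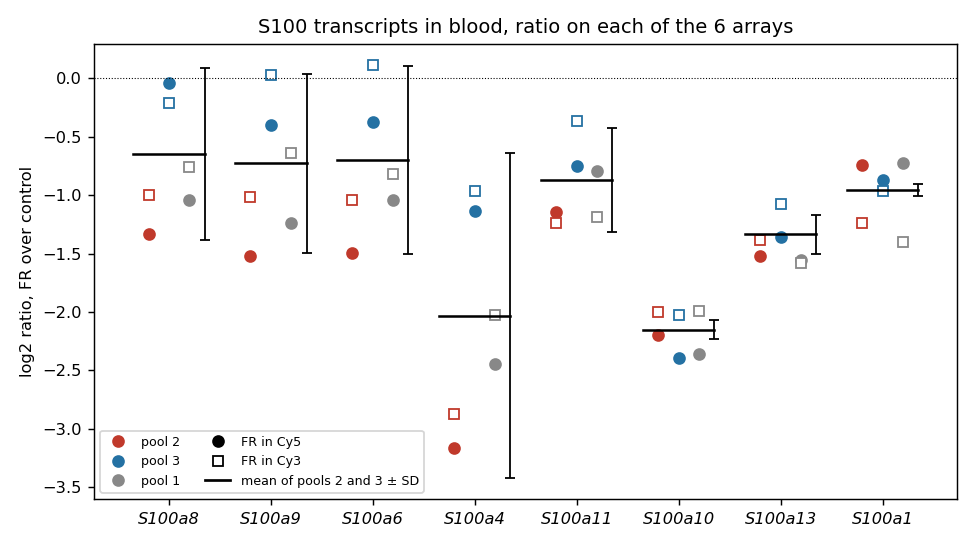
The plot gives the log2 ratio of FR over control (vertical axis) for each of the 8 genes on each of the 6 arrays, coloured by pool, with filled circles for FR in Cy5 and open squares for FR in Cy3; black lines are the mean of pools 2 and 3 and bars its SD (n = 2). S100a10 lies between -2.39 and -1.99 on every array, whereas S100a8, S100a9 and S100a6 lie at -1.002 or lower in pool 2 and between -0.40 and 0.12 in pool 3.

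The members fell into 2 patterns across the pools. S100a10, S100a13 and S100a1 were lowered by about the same amount in pools 2 and 3, with gaps between them of 0.11, 0.24 and 0.07 against a median gap of 0.18 over all features. S100a4, S100a6, S100a9 and S100a8 were lowered far more in pool 2 than in pool 3, with gaps of 1.96, 1.14, 1.08 and 1.04 (log2). Among the 11507 features these gaps ranked 1, 30, 39 and 43. The gap of S100a11 was 0.63 and ranked 509. For S100a4, S100a6, S100a8, S100a9 and S100a11 the gap between pools was larger than the largest gap between the dye-swapped arrays of a pool. How often this holds over all features was not counted. A larger fall in pool 2 was common to most features called lower (2513 of 2822, or 89.1%). A gap over 1, a limit not set in advance, was seen in 37 of those 2822 (1.31%), of which 4 were S100 genes. With median centring in place of loess the gaps of S100a4, S100a6, S100a9 and S100a8 were 1.70, 0.86, 0.69 and 0.71. Only S100a4 then stayed over 1. With Agilent's processed signals S100a9 was at 0.90, and S100a4, S100a6 and S100a8 stayed over 1. In the order given above, the same 4 gaps ranked 2, 56, 160 and 132 with median centring in place of loess, 1, 28, 25 and 36 without background subtraction, and 9, 266, 915 and 611 with Agilent's processed signals, which change background, dye correction and centring together. Why the pools differ was not tested.

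**Figure D2:**
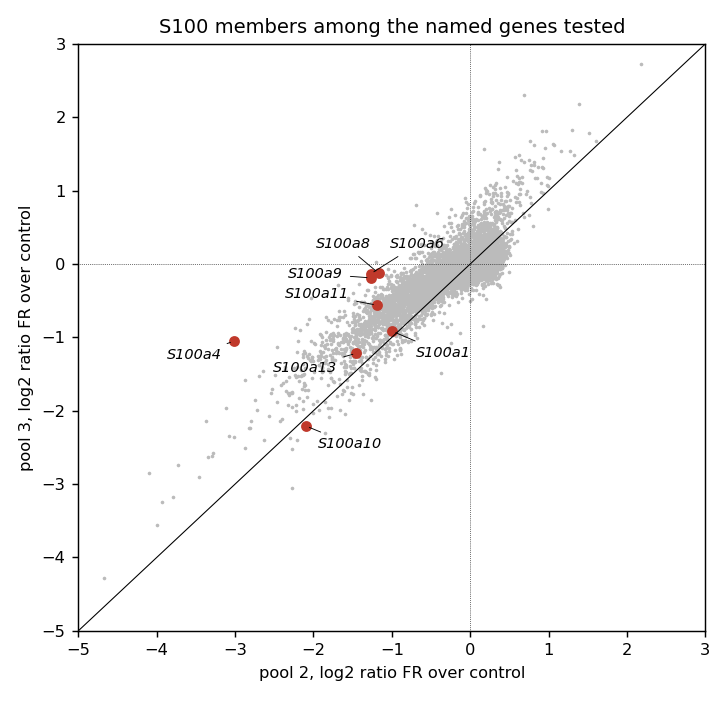
Each grey point is a named gene, with the log2 ratio of FR over control in pool 2 on the horizontal axis and in pool 3 on the vertical axis; the diagonal marks equal ratios, and the 8 S100 genes are in red. S100a4 stands apart at -3.02 and -1.05, S100a6, S100a8 and S100a9 lie together between -0.19 and -0.13 in pool 3, and S100a10 and S100a1 lie next to the diagonal.

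S100a8 (NM_013650) and S100a9 (NM_009114) encode the subunits of calprotectin and lie next to each other on chromosome 3 with convergent orientation (S100a8 on the plus strand, S100a9 on the minus strand). The 250 bases before each transcription start are printed because the transcripts behaved alike, together with those of S100a6, whose ratios were nearest to those of S100a9. All are from RefSeq on GRCm38.p6, 5′ to 3′ on the strand of the gene, with capitals where a searched motif matched on either strand.
S100a8, chr3:90668821-90669070, plus strand: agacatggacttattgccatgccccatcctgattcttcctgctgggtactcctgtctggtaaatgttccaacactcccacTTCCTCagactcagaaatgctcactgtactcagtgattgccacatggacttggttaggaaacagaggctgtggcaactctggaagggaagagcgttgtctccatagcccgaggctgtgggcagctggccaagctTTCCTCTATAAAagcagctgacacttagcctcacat
S100a9, chr3:90695722-90695971, minus strand: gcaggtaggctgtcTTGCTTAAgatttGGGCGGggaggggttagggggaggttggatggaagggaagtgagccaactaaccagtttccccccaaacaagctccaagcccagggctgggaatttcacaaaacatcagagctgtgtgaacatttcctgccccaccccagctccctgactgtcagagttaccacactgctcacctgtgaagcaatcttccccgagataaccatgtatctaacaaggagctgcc
S100a6, chr3:90612644-90612893, plus strand: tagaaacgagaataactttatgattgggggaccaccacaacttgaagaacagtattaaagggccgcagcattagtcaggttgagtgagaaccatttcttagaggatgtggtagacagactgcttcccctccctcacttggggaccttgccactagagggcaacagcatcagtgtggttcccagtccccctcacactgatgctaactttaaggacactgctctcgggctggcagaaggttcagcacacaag
The search covered the TATA box (TATAAA), a C/EBP core (TTNNGCAA), the GC box (GGGCGG), the ETS core bound by PU.1 (GAGGAA) and AP-1 (TGANTCA). The window of S100a8 held 1 TATA box and 2 ETS cores, both on the reverse strand, the nearer one directly before the TATA box. The window of S100a9 held 1 C/EBP core, on the reverse strand, and 1 GC box, and that of S100a6 held no match. Among 32851 windows of this length, 12.4% held the TATA box, 23.3% the ETS core, 9.56% the C/EBP core, 32.7% the GC box and 6.75% AP-1, so matches of this kind are common and are given as a description alone.

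For S100a8 the log2 ratio on the arrays with FR in Cy5 and in Cy3 was -1.05 and -0.76 in pool 1, -1.33 and -1.002 in pool 2, and -0.04 and -0.21 in pool 3. The 4 arrays of pools 1 and 2 were all clearly below 0, and those of pool 3 were close to it. The mean was -0.65 ± 0.74 (SD, n = 2; SE 0.15), a 1.57-fold lower signal, with a limma adjusted p of 6.39e-05. For S100a9, the brightest of the 8 probes, the ratios were -1.24 and -0.64 in pool 1, -1.52 and -1.02 in pool 2, and -0.40 and 0.03 in pool 3. The sign in pool 3 thus turned with the dye. Its mean was -0.73 ± 0.77 (SD, n = 2; SE 0.16), 1.66-fold lower, with a limma adjusted p of 5.25e-05. In pool 2 alone the signals of S100a8 and S100a9 were 2.25 and 2.41 times lower in FR, and in pool 3 alone 1.09 and 1.14 times lower.

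The same values split by diet show on which side the pools differed. The normalized log2 signal of S100a9 on the 6 arrays ran from 12.59 to 12.97 in FR (median 12.69) and from 12.94 to 14.21 in control (median 13.55). The small overlap came from the arrays of pool 3, where the control signal was lowest. Control pool 2 exceeded control pool 3 by 1.02 (log2), whereas FR pool 2 and FR pool 3 differed by -0.06. S100a8 ran from 10.03 to 10.65 in FR (median 10.44) and from 10.58 to 11.71 in control (median 11.07), with a gap between pools of 0.89 in control and -0.15 in FR. For both calprotectin genes the normalized FR signals of pools 2 and 3 were therefore alike, and the pool difference in the ratio lay mostly in the control signals. Signals compared between arrays cannot tell the mice apart from the labelling or the array. These single-channel gaps were not tested. The median gap over all features was 0.10 in control and 0.02 in FR. With quantile normalization of all single channels, chosen after seeing the data, the control gaps were 0.93 for S100a9 and 0.79 for S100a8, and the FR gaps were 0.14 and 0.02, with the sign turned.

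**Figure D3:**
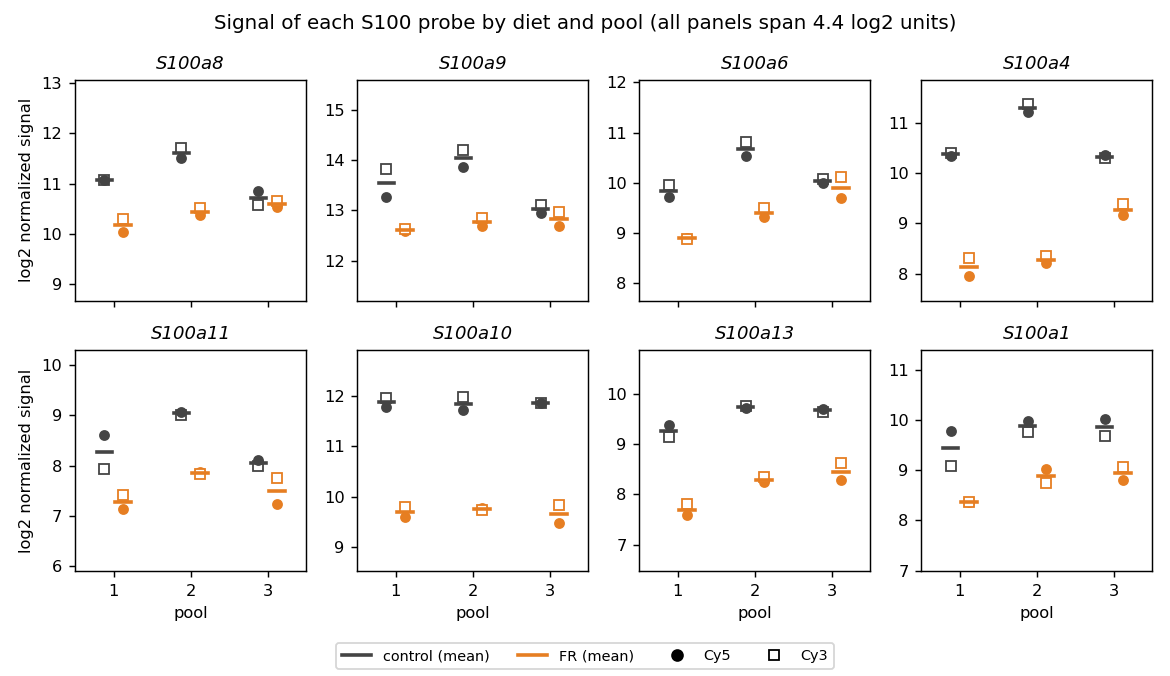
For each S100 gene the panels give the normalized log2 signal (vertical axis; every panel spans the same number of log2 units) of control (grey) and FR (orange) in pools 1, 2 and 3, with filled circles for Cy5, open squares for Cy3 and bars for the mean of both. For S100a8, S100a9 and S100a11 the control bar drops from pool 2 to pool 3, for S100a4 and S100a6 the control bar drops and the FR bar rises, and for S100a10, S100a13 and S100a1 both stay level.

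S100a6 (NM_011313), calcyclin, followed the calprotectin genes. Its ratios were -1.04 and -0.82 in pool 1, -1.49 and -1.04 in pool 2, and -0.38 and 0.12 in pool 3, again in the order FR in Cy5, FR in Cy3. As with S100a9, the 2 arrays of pool 3 fell on either side of 0. The mean was -0.70 ± 0.80 (SD, n = 2; SE 0.15), 1.62-fold lower, with a limma adjusted p of 1.14e-05. Signals ran from 8.89 to 10.11 in FR (median 9.41) and from 9.71 to 10.81 in control (median 10.04), so the diets overlapped. Here the pools differed on both sides, by 0.64 in control and by -0.50 in FR.

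The calls of S100a6, S100a8 and S100a9 rest on the variance that limma shared across features. When limma instead used 5.39 prior degrees of freedom, the number that all 3 pools gave, the adjusted p was 0.133 for S100a6, 0.139 for S100a8 and 0.119 for S100a9. With pool 1 in place of pool 2 the values were -0.53, -0.51 and -0.56, with limma adjusted p of 0.130, 0.133 and 0.106, and with the diets treated as separate samples (no replicate block) limma gave adjusted p of 0.137, 0.184 and 0.147. On the arrays with FR in Cy3 alone S100a6 was at -0.46 and S100a9 at -0.50, with limma adjusted p of 0.161 and 0.186, and the other 6 of the 8 members were called lower, where 18.4% of features were. With pool 1 in place of pool 2, 5 of the 8 were called lower (20.8% of features), and with pool 1 in place of pool 3 all 8 were (36.2% of features).

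S100a4 (NM_011311), also called metastasin, had the largest pool gap of any feature. Its ratios were -2.45 and -2.03 in pool 1, -3.16 and -2.87 in pool 2, and -1.13 and -0.97 in pool 3. All 6 arrays were at -0.97 or lower. The signal was 8.08-fold lower in pool 2, 2.07-fold lower in pool 3 and 4.72-fold lower in pool 1, which combines the animals of both. The mean was -2.03 ± 1.39 (SD, n = 2; SE 0.15), 4.09-fold lower, with a limma adjusted p of 1.12e-41. The SD is far above the SE because the latter comes from the variance shared across features. Signals ran from 7.95 to 9.38 in FR (median 8.33) and from 10.30 to 11.37 in control (median 10.38), with no overlap. Unlike the calprotectin genes, S100a4 differed between pools as much in FR (-0.99) as in control (0.97), in opposite directions. With pool 1 in place of pool 3 the ratio was -2.63. Under the 18 other settings, of which the processed signals and the authors' deposited series table hold the same values, the ratio stayed between -2.63 and -1.64 and the largest limma adjusted p was 0.0207. Settings that changed only the filter, the probe choice, the variance or the replicate block could not change this ratio.

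S100a10 (NM_009112), the p11 subunit that joins annexin A2 in a membrane complex, showed the largest mean difference of the 8 and one of the smallest pool gaps, although S100a4 was lower than S100a10 with Agilent's processed signals (-2.41 against -2.33) and with pool 1 in place of pool 3 (-2.63 against -2.14). Its ratios were -2.36 and -1.99 in pool 1, -2.19 and -1.997 in pool 2, and -2.39 and -2.03 in pool 3. The arrays with FR in Cy5 were lower than those with FR in Cy3 in each pool, by 0.20 to 0.37, which exceeds the gap between pools 2 and 3. The mean was -2.15 ± 0.08 (SD, n = 2; SE 0.15), 4.44-fold lower, with a limma adjusted p of 1.37e-46. Signals ran from 9.47 to 9.83 in FR (median 9.76) and from 11.73 to 11.97 in control (median 11.86), far from overlapping. Of all features, 0.38% had a lower mean ratio. The ratio stayed between -2.35 and -2.01 under the 18 other settings, with a largest limma adjusted p of 0.00154. As for S100a4, some of these settings could change the call but not the ratio.

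S100a11 (NM_016740), calgizzarin, lies next to S100a10 but its ratio was smaller and less even between pools. Its ratios were -0.80 and -1.18 in pool 1, -1.14 and -1.24 in pool 2, and -0.75 and -0.37 in pool 3. All 6 arrays were below 0. The mean was -0.88 ± 0.44 (SD, n = 2; SE 0.16), 1.83-fold lower, with a limma adjusted p of 2.19e-07. This was the dimmest of the 8 probes. Its signals ran from 7.14 to 7.87 in FR (median 7.58) and from 7.93 to 9.07 in control (median 8.36), close but not overlapping. Control pool 2 exceeded control pool 3 by 0.99 and FR pool 2 exceeded FR pool 3 by 0.36. The call ended without the replicate block, where limma gave an adjusted p of 0.139.

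S100a13 (NM_009113) and S100a1 (NM_011309) lie head to head at the start of the S100 cluster. The 104 bases between their starts are printed because each transcript was lower by an even amount across the pools. The run is the plus strand of GRCm38.p6 from RefSeq, and none of the motifs named above matched in it, so it has no capitals.
S100a1 to S100a13, chr3:90514331-90514434, plus strand: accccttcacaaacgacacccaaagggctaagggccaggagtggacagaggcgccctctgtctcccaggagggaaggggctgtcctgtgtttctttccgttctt
The ratios of S100a13 were -1.55 and -1.59 in pool 1, -1.53 and -1.38 in pool 2, and -1.36 and -1.08 in pool 3. These arrays varied least among the 8 members between dyes, with a largest dye gap of 0.28. The mean was -1.34 ± 0.17 (SD, n = 2; SE 0.15), 2.52-fold lower, with a limma adjusted p of 9.56e-18. Its signals ran from 7.59 to 8.62 in FR (median 8.26) and from 9.14 to 9.77 in control (median 9.67).

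The ratios of S100a1 were -0.73 and -1.40 in pool 1, -0.74 and -1.24 in pool 2, and -0.87 and -0.97 in pool 3. In contrast to S100a10, arrays with FR in Cy3 were the lower ones in each pool, and the dye gap of 0.68 in pool 1 was the largest of the 8 members. Averaging both dyes gave -1.07, -0.99 and -0.92 for pools 1, 2 and 3. The mean of pools 2 and 3 was -0.95 ± 0.05 (SD, n = 2; SE 0.15), 1.94-fold lower, with a limma adjusted p of 1.21e-09. Signals ran from 8.36 to 9.06 in FR (median 8.77) and from 9.09 to 10.02 in control (median 9.77), a narrow separation. Of the 8 members, 5 (S100a1, S100a4, S100a10, S100a11 and S100a13) had FR signals on all 6 arrays below the lowest control signal, as had 14.6% of features.

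Along chromosome 3 the genes of the family lie in 2 groups in the RefSeq order of GRCm38.p6. S100a1 to S100a9 span 12 protein-coding genes, and S100a11 and S100a10 follow after 56 others. Within the first group, S100a3 and S100a5, which flank S100a4 in the order of S100 genes on this array, were tested and not called. S100a3 was at 0.06 ± 0.08 (SD, n = 2; limma adjusted p = 0.796; -0.16 with median centring), and S100a5 at 0.24 ± 0.06 (SD, n = 2; limma adjusted p = 0.293). S100a5 was called higher when only arrays labelling FR with Cy5 were used (0.43, limma adjusted p = 0.0144). The genes S100a7a, S100a14, S100a16 and S100g gave a signal above background on 0 of 4 arrays in both diets, and S100b on 2 in each diet. Of the nearest genes outside the family, Chtop, next to S100a1, was lower (-0.53 ± 0.29 (SD, n = 2), limma adjusted p = 0.00372), and Snapin (-0.21, limma adjusted p = 0.153) and Tdpoz1 near S100a10 (0.25, limma adjusted p = 0.270) were not called. Called members and uncalled genes of the family thus lie side by side around S100a4.

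**Figure D4:**
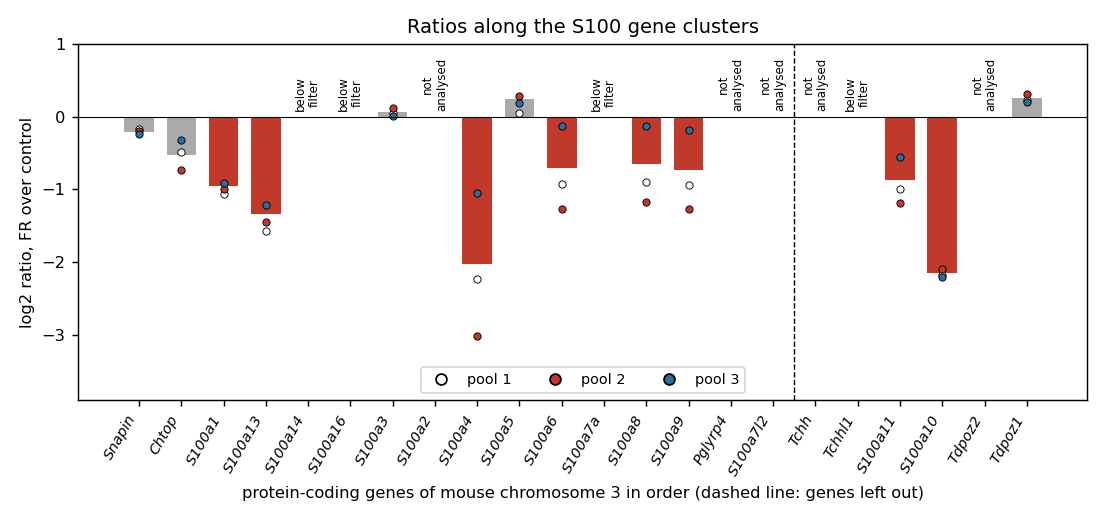
Bars give the mean log2 ratio of FR over control of pools 2 and 3 for protein-coding genes in their order on mouse chromosome 3, red for the 8 S100 genes and grey for other genes, with a point for each pool; genes not analysed here, or too dim to be tested, are marked and have no bar. S100a3 and S100a5, at 0.06 and 0.24, stand on either side of S100a4 at -2.03, between S100a13 at -1.34 and S100a6 at -0.70.

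The named genes closest to each member over the 6 array ratios were found by Euclidean distance. S100a6 and S100a9 were each other's nearest gene of all named genes tested (distance 0.29), with haptoglobin (Hp, an acute-phase plasma protein also made by myeloid cells) next for both, at 0.37 and 0.46, and S100a8 the next for S100a6 at 0.50. Hp was at -1.21 in pool 2 and -0.31 in pool 3, the same uneven pattern. S100a8 was nearest to Itga4, an integrin subunit of leukocytes (0.35), Rnf213 (0.42) and Pygl, liver-type glycogen phosphorylase (0.44), and the next of S100a9 was transketolase, Tkt (0.49). The median distance from these 3 members to the other named genes tested lay between 2.11 and 2.30.

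S100a4 had no gene as close to it as the other members had. Rsrp1 (0.83), the ribosomal protein gene Rps18 (0.89) and the myosin gene Myo1g (0.93) were the nearest. Near S100a10 lay the sialomucin gene Cd164 (0.35) and the dynein light chain gene Dynlt1b (0.39), which were at -2.02 and -2.05 (Cd164 at -2.61 with processed signals). S100a11 was nearest to Creg1 (0.23), Park7 (0.29) and Lmo2 (0.30), S100a13 to Picalm (0.16), the cyclophilin gene Ppia (0.17) and Ywhaz (0.21), and near S100a1 lay the lysosomal membrane gene Lamp1 (0.33) and the p38 kinase gene Mapk14 (0.37).

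Of 18 receptors and adaptors of secreted S100 proteins listed, 11 were tested. Of these 0 were higher and 4 lower (median -0.10), where 24.5% of all features were called lower. Tlr4 and Ager, the receptors best known for calprotectin, gave a signal above background on 0 of 4 arrays in both diets. The genes called were Nptn, neuroplastin, a receptor for S100A8 (-1.33 ± 0.18 (SD, n = 2), limma adjusted p = 2.98e-17), Emb (embigin, -0.97 ± 0.53 (SD, n = 2)), Cd69 (-0.48 ± 0.18 (SD, n = 2)) and the Toll adaptor Myd88 (-0.40 ± 0.14 (SD, n = 2)). The calls of Emb and Cd69 ended without the replicate block (limma adjusted p of 0.0809 and 0.140), and that of Cd69 also with 5.39 prior degrees of freedom (limma adjusted p of 0.0599). With processed signals Emb was at -1.81 and Cd69 at -1.56. A second probe of Emb, at -0.36, was also called lower. FR was above background on all 4 arrays for 4 of the 11. With both diets required above background, 1 of the list was called lower, where 1313 of all 7078 features were. Cd14 (0.10) and Bsg, basigin (0.26), were not called.

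Of 7 annexins tested, of 12 listed, 3 were lower and none higher (median -0.24), where 24.5% of all features were lower. Anxa5, the phosphatidylserine-binding annexin, was at -1.53 ± 0.08 (SD, n = 2). Anxa2, the partner of S100A10, was at -0.57 ± 0.35 (SD, n = 2; limma adjusted p = 0.000497), with -0.81 in pool 2 and -0.32 in pool 3, and its second probe at -0.38 was also called. This difference was smaller than that of S100a10 and less even between pools. Anxa1, a partner of S100A11, was at -0.50 ± 0.54 (SD, n = 2; limma adjusted p = 0.00619), with -0.88 in pool 2 and -0.12 in pool 3. Its call ended under 5 of 17 other settings, counting the processed signals and the series table once, and that of Anxa2 under 2, with limma adjusted p of 0.174 and 0.0645 at 5.39 prior degrees of freedom. With processed signals Anxa2 was at -1.38. Anxa11, a partner of S100A6, was at -0.24 and not called (limma adjusted p = 0.205), but it was called lower under 4 other settings, among them median centring.

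Among intracellular partners, 7 of 12 tested, of 20 listed, were lower and none higher (median -0.64), where 24.5% of all features were lower. Myh9, the nonmuscle myosin heavy chain that S100A4 binds, was at -1.19 ± 0.15 (SD, n = 2), with -1.08 in pool 2 and -1.29 in pool 3, and so did not show the pool gap of S100a4. Cacybp, the calcyclin-binding protein, was at -0.64 ± 0.04 (SD, n = 2), with FR above background on 2 of 4 arrays. Iqgap1 (-1.44), Sugt1 (-1.29), Capzb (-0.90), Trp53 (-0.66) and Plgrkt (-0.63) were also lower, although a second probe of Iqgap1 at -0.20 was not called. A second probe of Sugt1, at -0.38, was called lower. With processed signals Cacybp was at -2.32, Sugt1 at -2.74 and Iqgap1 at -2.46. FR was above background on all 4 arrays for 7 of the 12, and with both diets required above background 4 of the list were called lower. Fgf1, whose protein is released with S100A13, was at 0.14 and not called, with -0.09 under median centring. Ahnak, a scaffold that S100A10 and annexin A2 bind, was at -0.11 and not called on its brightest probe. Its probes at -1.52 and -0.61 were called lower, and those at -0.28 and 0.25 were not called.

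Of 24 other EF-hand genes tested, of 32 listed, 2 were higher and 13 lower (median -0.44), where 24.5% of all features were lower. Lcp1, the actin bundler L-plastin (-1.70 ± 0.62 (SD, n = 2)), Calm2, calmodulin (-1.55 ± 0.06 (SD, n = 2)) and Sri, sorcin (-1.29 ± 0.30 (SD, n = 2)), were the lowest of those called. A second probe of Lcp1, at -0.25, was not called, and Sri was at -2.18 with processed signals. FR was above background on all 4 arrays for 18 of the 24. With both diets required above background 8 of the list were called lower, and without the replicate block 6 were. Calm3 (0.55) and Ehd1 (0.68) were called higher, but neither call held with median centring (limma adjusted p of 0.213 and 0.0792), and other probes of Calm3 were at -0.17 and -0.35. Of 14 transcription factors listed as linked to S100a8 and S100a9, 5 were tested. Of these 4 were lower and none higher, where 24.5% of all features were lower. Klf4 was at -1.22, Cebpd at -0.79, Junb at -0.56 and Stat3 at -0.46. FR was above background on all 4 arrays for 3 of the 5 factors. With both diets required above background 2 were lower, and with no filter on dim probes 3 were lower and 1 higher. The call of Junb ended at 5.39 prior degrees of freedom and without the replicate block (limma adjusted p of 0.0645 and 0.179), and that of Cebpd without the replicate block (limma adjusted p of 0.203). With processed signals Klf4 was at -2.55 and Cebpd at -1.50. Cebpb was at 0.12 and not called.

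Because S100a8 and S100a9 are abundant in neutrophils and monocytes, marker genes of blood cells are given beside them. Of 22 neutrophil markers tested, of 30 listed, 3 were higher and 3 lower, with a median of -0.03. Over all features, 3.75% were called higher and 24.5% lower. Their summed log2 signal over the 6 arrays ran from 13.8 to 14.2 in FR and from 13.9 to 14.4 in control. Clec4d (-1.51), Ifitm6 (-0.68) and Csf3r (-0.41) were lower and Stfa2l1 (0.83), Wfdc21 (0.47) and Lcn2 (0.33) higher. Except for Clec4d, these calls ended at 5.39 prior degrees of freedom, where limma gave adjusted p from 0.0604 to 0.254. With processed signals Csf3r was at -1.35, Stfa2l1 at 1.58, Wfdc21 at 1.14 and Lcn2 at 1.20. Elane was above background on 0 arrays in either diet. Neutrophil markers differed between pools 2 and 3 by a median of 0.57 in control and 0.10 in FR. Markers of other leukocytes differed on the control side too, by 0.55 in control and 0.04 in FR for monocytes, 0.61 and 0.16 for B cells, and 0.29 and 0.05 for T cells. With quantile normalization of single channels these gaps were 0.52 and 0.16 for neutrophils and 0.43 and 0.03 for monocytes. For B cells they were 0.36 and 0.22, and for T cells 0.23 and 0.10. Platelet markers differed by 0.07 in control and 0.13 in FR (-0.08 and 0.21 with that normalization). Erythroid markers differed by 0.28 and -0.20 (0.10 and -0.14). The part of these cells in the result was not tested.

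Of 17 monocyte markers tested, of 24 listed, 14 were lower and none higher, and 3 of the 17 were above background on 0 FR arrays and 9 on all 4. Passing the filter through control alone favours genes that are lower in FR, though it does not fix the direction. With both diets required above background 6 were called lower, where 1313 of all 7078 features were. Without the replicate block 7 of the list were called lower. The median of the 17 was -0.99, with -1.32 in pool 2 and -0.64 in pool 3. S100a8 was at -1.17 in pool 2 and -0.13 in pool 3, and S100a9 at -1.27 and -0.19. The medians over the 8 S100 genes, -1.27 and -0.74, mix the 2 patterns across the pools. The summed log2 signal of the monocyte markers ran from 12.7 to 13.1 in FR and from 15.1 to 15.9 in control. Ctss (cathepsin S, -3.48), Lyz2 (lysozyme, -3.23) and Lyz1 (-2.76) were the lowest, with Ctss at -4.25 on processed signals and a second probe of Lyz2 at -2.003. Of markers of other cells, 15 of 17 for B cells (median -1.82), 15 of 19 for platelets (median -1.05) and 7 of 14 for T cells (median -0.46) were lower and none higher. Over all features 24.5% were lower. FR was above background on all 4 arrays for 9 B cell, 19 platelet and 6 T cell markers. With both diets required above background 7 B cell, 15 platelet and 1 T cell marker were called lower. Their summed log2 signals ran from 11.6 to 12.2 in FR and from 13.9 to 14.8 in control for B cells, from 16.1 to 16.4 and from 17.4 to 17.7 for platelets, and from 11.87 to 11.97 and from 12.3 to 12.5 for T cells. Among 20 erythroid markers, 5 were higher and 4 lower (median 0.08), with summed signals from 19.0 to 19.8 in FR and from 18.9 to 19.7 in control. Of 8 cardiac muscle markers tested, of 18 listed, 0 were called (median 0.16), beside S100a1, known from heart muscle, at -0.95. With processed signals, with no filter on dim probes or with both diets required above background, 1 was called higher and 0 lower. Among cardiac markers not tested, Csrp3 was above background on 0 arrays, but Nppa was on 2 FR and 3 control arrays. The part of these cells in the S100 values was not tested.

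**Figure D5:**
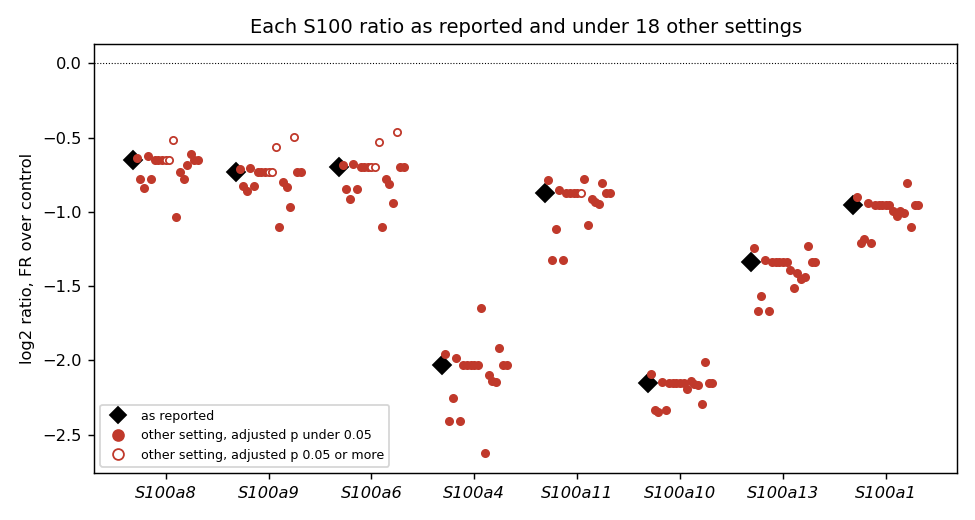
The plot gives the mean log2 ratio of FR over control for each S100 gene as reported (black diamonds) and under 18 other settings of background, normalization, filter, variance, pools and dyes (red circles, open where the limma adjusted p was 0.05 or more). S100a1, S100a4, S100a10 and S100a13 kept their call under all 18, and all values of the 8 genes stayed below 0. Settings that changed only the filter, the probe choice, the variance or the replicate block could not move a value.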

How the data were processed

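Per the submitters' processing notes, spots were read with Agilent Feature Extraction 11.0.1.1. The scanner files hold linear spot intensity values (median signal and background of Cy5 and Cy3), as deposited. The series table that the authors deposited holds log10 ratios of red over green processed signal, matched to the scanner files, with swapped arrays not turned, and was used, turned and centred, as an alternative. The labels' dyes set the direction of ratios. Median signals were used where mean signals had been planned.

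With limma 3.58.1 in R 4.3.3, background was corrected by normexp (offset 50), and log2 ratios were normalized by loess within arrays. Control spots and outlier spots were left out, ratios were turned to FR over control, and the 2 arrays of a pool were averaged. Accessions were named through RefSeq (GRCm38.p6), which named 23374 of 41174 probes. Probes were kept where 1 diet at least was well above background on each of the 4 arrays of pools 2 and 3, and the brightest probe stood for its gene. Pools 2 and 3 were tested against 0 (eBayes with trend, two-sided, Benjamini-Hochberg over 11507 features). The fit gave all features of a given brightness 1 variance, so its p-values overstate certainty for genes that vary between pools. Each ratio lies within an array, so the replicate block (pool) is part of the measurement. Pools 2 and 3 share a slide and pool 1 lies on the other, and every array carries both diets. Nothing was saturated, and 20.4% to 55.6% of spots in FR and 37.2% to 62.1% in control were well above background. The number of arrays limits precision.

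Named genes were the 8 members, genes known to bind them, the called genes with the 3 lowest and 3 highest ratios of each list for the lists of S100 partners, factors, neutrophils and monocytes, the 3 genes nearest each member (2 of which are not reported here), and neighbours in gene order. Other genes printed (such as Cd14, Bsg, Capzb, Trp53, Plgrkt, Stat3 and Cebpb) were chosen after their values were seen. Members and lists were chosen with earlier results of these data known. Single channels were scaled by Aquantile after loess.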

Additional observations from a re-analysis of the deposited data

How the results depend on the processing

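All 8 members stayed below 0 under each of the 18 other settings, and the calls lost are given with each gene. Each member has 1 probe that passed every filter. Settings that changed only the filter, the probe choice, the variance or the replicate block therefore could not change its ratio, only its call. Of the 8, 5 were called lower with 5.39 prior degrees of freedom, as 3 pools gave (15.5% of features lower), 4 without the replicate block (8.59%), 6 with FR in Cy3 alone (18.4%), and 5 and 8 when pool 1, which shares animals with the pool kept, stood in for pool 2 (20.8%) or pool 3 (36.2%). Calls over all features numbered 3253 (431 higher, 2822 lower). They came to 1956 (176 higher, 1780 lower) with 5.39 prior degrees of freedom and 1104 (116 higher, 988 lower) without the replicate block. Where both diets had to be above background, 1750 of 7078 features were called (1313 lower). Pool 1 in place of pool 2 or 3 gave 2867 to 5883 calls (475 to 1720 higher, 2392 to 4163 lower). Higher calls numbered 181 with median centring, 921 with 3 pools as replicates and 1003 with FR in Cy5 alone. Median centring moved the median of all features from 0.01 to -0.18, and the members' median from -0.91 to -1.15. Reversed values, none of them called, were Fgf1 (-0.095) and S100a3 (-0.16) with median centring and Ahnak (0.0087) with pool 1 in place of pool 2. Why values or calls changed between settings was not tested. Over the other named genes, 1108 values kept their call and direction, 69 lost the call and 7 gained it. Agilent's processed signals, which equal the series table, moved 28 of 75 named genes by over 1.5 times, but 0 of the 8 members. With 2 independent pools of 4 animals per diet, spread between animals was not measured.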
